A study of Rattus norvegicus with 6 samples.

Results

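Guanylin (Guca2a), uroguanylin (Guca2b), their receptor guanylate cyclase C (Gucy2c) and the calcium-binding protein S100g were followed through enterocyte nuclei of rat colon. They were chosen by name, and all 4 were among the 17388 genes counted. The study sequenced single nuclei of flash-frozen colon from male Wistar rats labelled Wildtype, and asked how the melanocortin 1 receptor agonist PL8177 acts on colitis induced by dextran sulfate sodium (DSS). Sham rats drank water. Placebo rats drank 5% DSS for 3 days and were next given drug-free capsules 2 times daily over 4 days, and PL8177 rats had the same DSS and, on the same schedule, capsules of 50 µg PL8177 per animal. Placebo and PL8177 rats therefore shared the DSS, and the age of the rats is not given in the sources used here.

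Guanylin and uroguanylin are small peptides that gut epithelial cells release toward the lumen. They bind guanylate cyclase C on the apical membrane, which makes cyclic GMP (cGMP). Through the kinase Prkg2, cGMP opens the chloride channel Cftr and slows the sodium-proton exchanger Slc9a3, so that salt and water stay in the lumen. S100g, also called calbindin-D9k, carries calcium through the cell between its entry by the channel Trpv6 and its exit by pumps of the basolateral membrane, and it is a classical target of the vitamin D receptor (Vdr).

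Each value rests on unique molecular identifiers (UMIs), each of which stands for 1 captured RNA molecule. The start of each nucleus name held a library tag, and there were 3 tags per treatment: GR12, GR13 and GR15 in sham, GR22, GR23 and GR24 in placebo, and GR41, GR43 and GR44 in PL8177. The tags were read as rats, which the labels do not list. The 8782 enterocyte nuclei fell into 2464 sham, 2959 placebo and 3359 PL8177 nuclei, with 304 (GR23) to 1531 (GR43) per tag and a median of 437 (GR13) to 2331 (GR12) UMIs per nucleus. A list of 15 enterocyte markers summed to 179 to 370 UMIs per 10000 UMIs in these nuclei, and 13 T cell markers summed to 0.156 to 0.846. The 1018 T cell nuclei served as background, and 685 of them carried the tag GR23. In that tag the enterocyte markers summed to 254 per 10000 in the nuclei labelled T cells and to 180 in the enterocytes, so the nuclei labelled T cells of GR23 went against their label and T cell shares are given without them as well. In the T cell nuclei of the other tags, enterocyte markers summed to 30.4 (GR12) to 95.8 (GR44) per 10000. T cell markers summed to 24.8 (GR43) to 58.6 (GR12) there. The enterocyte sum was the larger in GR13, GR15, GR41, GR43 and GR44. In each pair of tags 0 or 1 nucleus barcode was shared, 10 in all.

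Guca2a and Guca2b lie beside each other on chromosome 5, with 0 genes between them in the RefSeq annotation, and yet they differed in how often they were caught: the enterocyte nuclei held 8429 UMIs of Guca2a and 17 of Guca2b. The 250 bases before the start of each gene are printed because the genes are neighbours and 1 of them was almost absent. They come from RefSeq on the assembly GRCr8, whereas the counts were made on Rnor 6.0. Guca2a lies on the plus strand (chr5:138522196-138522445) and Guca2b on the minus strand (chr5:138534211-138534460), and both are written in the direction of transcription. Capitals mark the motifs found, of 4 searched on both strands. The motif of CDX factors was spelled TTTAT. That of the GATA family was AGATAA, which is printed as TTATCT where it lies on the opposite strand. The HNF1 motif was GTTAAT. For the TATA box it was TATAAA, whose opposite strand contains the CDX motif.
Guca2a: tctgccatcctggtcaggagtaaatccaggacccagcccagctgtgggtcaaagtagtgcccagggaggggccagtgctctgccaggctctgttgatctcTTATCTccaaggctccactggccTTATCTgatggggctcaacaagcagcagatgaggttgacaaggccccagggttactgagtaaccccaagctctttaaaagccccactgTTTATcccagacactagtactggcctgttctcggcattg
Guca2b: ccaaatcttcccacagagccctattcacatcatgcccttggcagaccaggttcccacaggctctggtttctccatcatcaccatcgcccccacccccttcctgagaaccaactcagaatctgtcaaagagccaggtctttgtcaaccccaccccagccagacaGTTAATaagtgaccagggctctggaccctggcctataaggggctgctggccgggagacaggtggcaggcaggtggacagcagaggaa
The Guca2a window held AGATAA on the opposite strand at positions -150 and -127 and TTTAT at -39, counted back from the start of the gene. The Guca2b window held GTTAAT at -87 and none of the other motifs. Of 33469 rat promoter windows of the table, 10.3% held AGATAA, 39.3% TTTAT, 6.45% GTTAAT and 12.9% TATAAA. These matches describe letters only. Promoters of Gucy2c and S100g were not used here.

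Guca2a, the main guanylin of the colon, did not separate the treatments. Its level per 10000 UMIs was 4.76 in GR12, 2.07 in GR13 and 2.34 in GR15 of sham. In placebo it was 9.72 in GR22, 1.47 in GR23 and 3.41 in GR24. In PL8177 it was 1.91 in GR41, 3.82 in GR43 and 3.90 in GR44. GR22 stood above all other tags, but the lowest tag of all was also a placebo tag, so the 3 treatments overlapped. The means were 3.06 ± 1.48 in sham, 4.87 ± 4.31 in placebo and 3.21 ± 1.13 in PL8177 (SD, n = 3 tags). In edgeR's quasi-likelihood test over 9424 genes, sham differed from placebo by a log2 fold change of -0.55 (SE 0.546, 95% interval -1.74 to 0.63, Benjamini-Hochberg adjusted p = 0.696), and PL8177 from placebo by -0.47 (SE 0.543, interval -1.64 to 0.71, adjusted p = 0.846). PL8177 differed from sham by 0.09 (SE 0.546, interval -1.10 to 1.27, edgeR adjusted p = 0.992). Without GR22 the values against placebo turned to 0.43 and 0.51, so the lower fitted level in sham and PL8177 rested on that tag.

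Gucy2c, the receptor, varied least over the tags among the 3 members tested. Its level per 10000 UMIs was 5.07 in GR12, 7.08 in GR13 and 7.83 in GR15 of sham, and 5.07 in GR22, 6.08 in GR23 and 6.52 in GR24 of placebo. In PL8177 it was 2.55 in GR41, 5.18 in GR43 and 5.70 in GR44. GR41 was the lowest tag, and the other 8 lay between 5.07 and 7.83 whatever the treatment. The means were 6.66 ± 1.43 in sham, 5.89 ± 0.742 in placebo and 4.48 ± 1.69 in PL8177 (SD, n = 3 tags). The log2 fold change in edgeR was 0.34 for sham against placebo (SE 0.313, interval -0.34 to 1.02, adjusted p = 0.675), -0.22 for PL8177 against placebo (SE 0.312, interval -0.90 to 0.46, adjusted p = 0.885) and -0.56 for PL8177 against sham (SE 0.313, interval -1.24 to 0.12, adjusted p = 0.772).

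S100g had the widest range of the members over the tags. Its level per 10000 UMIs was 5.33 in GR12, 1.23 in GR13 and 7.05 in GR15 of sham, and 9.91 in GR22, 3.20 in GR23 and 9.85 in GR24 of placebo. In PL8177 it was 0.733 in GR41, 13.4 in GR43 and 6.22 in GR44. The lowest and the highest of the 9 tags were both PL8177 tags, 18.3-fold apart. The means were 4.53 ± 2.99 in sham, 7.65 ± 3.86 in placebo and 6.78 ± 6.35 in PL8177 (SD, n = 3 tags). In edgeR the log2 fold change was -0.66 for sham against placebo (SE 0.781, interval -2.35 to 1.03, adjusted p = 0.753), -0.04 for PL8177 against placebo (SE 0.772, interval -1.71 to 1.64, adjusted p = 0.994) and 0.62 for PL8177 against sham (SE 0.780, interval -1.07 to 2.32, adjusted p = 0.901).

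**Figure D1:**
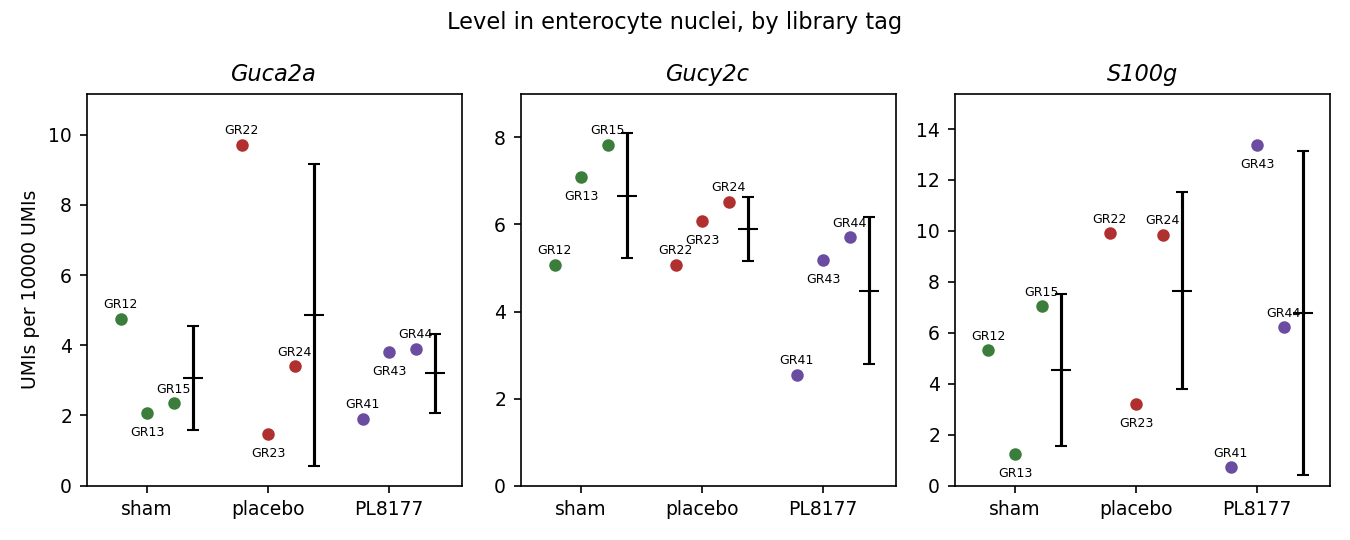
Level of Guca2a, Gucy2c and S100g in enterocyte nuclei, in UMIs per 10000 UMIs (vertical axes, linear), by treatment. Each point is a library tag, the bar at its right is the mean of 3 tags with its SD, and the treatments overlap in each panel, with S100g running from 0.733 in GR41 to 13.4 in GR43.

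Of the 3 members that passed the filter on low counts (Guca2b did not), 0 were called by edgeR in any comparison (adjusted p under 0.05 with a log2 fold change of over 0.5 in size). Over all 9424 genes the share called was 0% in each of the 3 comparisons. At an unadjusted p below 0.05, 0 of the 3 members stood beside 12.4% of all genes for sham against placebo, 9.24% for PL8177 against placebo and 6.59% for PL8177 against sham. DESeq2, which called 1.93%, 1.32% and 0.0242% of the genes it adjusted, also called 0 members. The tags of the compared treatments overlapped for 3 of 3 members. They did not overlap for 19.6%, 18.8% and 12% of all genes, so overlap was the usual outcome and does not set the members apart. Exact two-sided permutation tests of the levels, 3 tags against 3, gave p of 0.3 to 1 in 9 comparisons, where the smallest p possible is 0.1. The intervals were wide. For Guca2a and S100g they reached beyond a log2 fold change of 1 in at least 1 direction in each comparison, so these data do not show that the levels were alike. In these sums fewer nuclei that express a gene and less RNA in each cannot be told apart, which the counts per nucleus given further on address in part.

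The spread between tags set the members apart from one another. On log2(UMIs per 10000 + 0.1), the SD over the 9 tags was 1.37 for S100g, larger than that of 99.8% of the genes tested, 0.80 for Guca2a (98.0% of genes) and 0.46 for Gucy2c (76.9%), beside a median of 0.35. RNA of 74 ribosomal protein genes, looked at after these values were seen, ran from 16.3 per 10000 in GR13 and 16.5 in GR41 to 32.2 in GR22. GR13 and GR41 were the tags with the least S100g and GR22 that with the most Guca2a. The match did not extend to all tags. GR43, the tag with the most S100g, stood at 20.9, and GR44, at 29.3, had 6.22 of S100g and 3.90 of Guca2a. The part of such RNA in these levels was not tested.

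Uroguanylin was nearly missing. Guca2b had 17 UMIs in 12 nuclei of 4 tags, 1 in GR12, 4 in GR22, 6 in GR24 and 6 in GR43. In the other 5 tags no nucleus held a UMI, which allows a share of 0.295% (GR41) to 0.987% (GR23) of nuclei with one, counting error only. It passed no filter, and in a fit without one its log2 fold change was -2.58 for sham against placebo (SE 1.62, edgeR adjusted p = 0.617). Of the 12 nuclei that held it, 10 also held Guca2a, 7 Gucy2c and 5 S100g. Over all nuclei of these 4 tags, as deposited, 25% (GR24) to 51.1% (GR22) held Guca2a, 50.5% to 66.5% Gucy2c and 34.6% to 54.3% S100g, and the counts of 7 and 5 in 12 lie within these ranges for Gucy2c and S100g. Of the 12, 0 held a UMI of the markers found for the BEST4 cell, an absorptive cell that makes uroguanylin in human colon (2 of 7 markers were found). This count cannot tell whether they were such cells, because these markers had 0 UMIs in all enterocyte nuclei of the same 4 tags. They had 2 UMIs in GR23. These 12 nuclei had 474 to 8763 UMIs, with a median of 3343, which is deeper than the median of any tag, and no cell type can be read from so few.

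Detection per nucleus was compared at an equal depth of 500 UMIs, drawn at random from each nucleus, because the tags differed in depth. Shallower nuclei were left out, 850 in sham (502 of them in GR13), 489 in placebo and 662 in PL8177. Guca2a was detected in 12.6%, 7.38% and 10.7% of the nuclei of GR12, GR13 and GR15. It was detected in 23.1%, 7.41% and 12.1% in GR22, GR23 and GR24, and in 6.00%, 11% and 16.3% in GR41, GR43 and GR44. As deposited, before thinning, the share was 41.2% in GR12 and 8.95% in GR13, against 12.6% and 7.38% at 500 UMIs. These tags also differed in Guca2a level (4.76 and 2.07 UMIs per 10000) and in the nuclei left out. The part of depth in the gap was not separated.

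Gucy2c was detected in 23.4%, 29.5% and 31.6% of thinned nuclei in GR12, GR13 and GR15. The shares were 22.0%, 27.5% and 28.4% in GR22, GR23 and GR24, and 14.3%, 22.9% and 24.4% in GR41, GR43 and GR44. S100g was detected in 15%, 4.92% and 23.9% in the sham tags, 16.5%, 13.2% and 23.4% in the placebo tags and 2.82%, 31.8% and 20.8% in the PL8177 tags, in the same order. GR41 was the lowest tag for each of the 3 genes, GR22 the highest for Guca2a and GR43 the highest for S100g. Exact two-sided permutation tests between treatments gave p of 0.2 to 1 in 9 comparisons, and each pair of treatments overlapped. At 300 UMIs, which kept more nuclei (678 in place of 325 in GR13), the PL8177 tags no longer overlapped the sham or placebo tags for Gucy2c. It was detected in 7.37%, 13.6% and 14.4% of nuclei in GR41, GR43 and GR44, below the 15.9%, 18.6% and 21.5% of the sham tags and the 15.7%, 16.7% and 19.3% of the placebo tags. The differences were -6.89 percentage points from sham and -5.44 from placebo, each with an exact permutation p of 0.1, the smallest that 3 against 3 tags allow, and an adjusted p of 0.45 over 9 tests. How many of all genes separate in detection at 300 UMIs was not computed. In level, 12% of all genes did not overlap between PL8177 and sham tags, and 18.8% between PL8177 and placebo tags. At 1000 UMIs the treatments overlapped again for Gucy2c (exact p = 0.3 in both comparisons of PL8177).

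**Figure D2:**
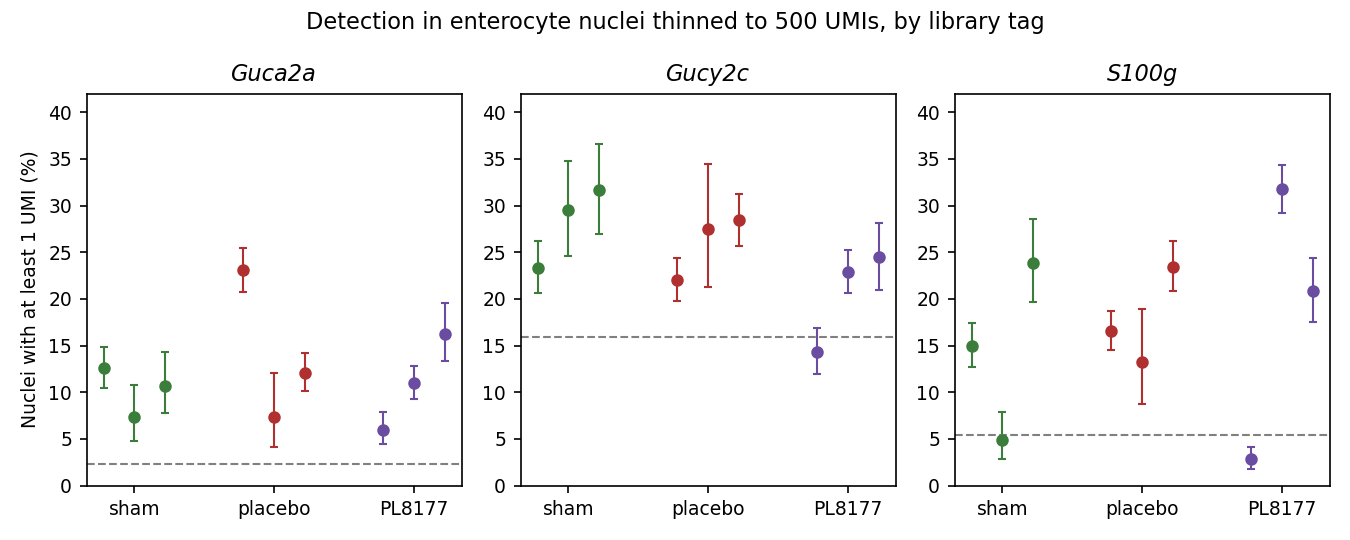
Share of enterocyte nuclei with at least 1 UMI of each gene (vertical axis, %), after thinning each nucleus to 500 UMIs, by treatment and library tag with exact 95% binomial intervals. The dashed line is the share in thinned T cell nuclei without GR23 (2.27% for Guca2a, 15.9% for Gucy2c, 5.45% for S100g), and GR41 lies below it for Gucy2c and S100g.

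T cell nuclei, which should lack these genes, served as background, and the source of the UMIs in them was not tested. Their enterocyte markers outweighed their T cell markers in GR13, GR15, GR41, GR43 and GR44 as well as in GR23. The background shares are therefore not those of nuclei free of enterocyte RNA. In 220 of them from the other 8 tags, thinned in the same way, 2.27% held Guca2a, 15.9% Gucy2c, 5.45% S100g and 0 Guca2b. In 492 of GR23 the shares were 4.67%, 21.5% and 5.08%. Guca2a lay above the background of 2.27% in each enterocyte tag. Gucy2c in GR41 (14.3%) and S100g in GR13 (4.92%) and GR41 (2.82%) lay below these shares and are not read as expression on this comparison alone. The T cell nuclei of those same tags were few. In GR41, 1 of 14 held Gucy2c (7.14%) and 0 held S100g, which allows a share of up to 21.4%, and in GR13 0 of 5 held S100g, which allows up to 60%.

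The members exceeded their level in T cell nuclei to unlike degrees. Over the 15108 genes that both sets of counts share, Guca2a was higher in enterocytes than in T cell nuclei of the same tag in 9 of 9 tags (exact sign-flip permutation test p = 0.00391, the smallest that 9 tags can give, adjusted p = 0.00977 over 5 tests), with a median ratio of 4.75 in the 4 tags with more than 3 T cell UMIs. S100g was also higher in 9 of 9 tags, with a median ratio of 4.59 in 6 tags and the same p. Gucy2c was higher in 8 of 9 tags (exact p = 0.0117, adjusted p = 0.0146), but only by a median of 1.76 and a range of 0.838 to 2.56 in 8 tags. For comparison the enterocyte marker list had a median ratio of 4.06. Without GR23 the median ratios were 5.35 for Guca2a and 6.44 for S100g, each higher in 8 of 8 tags (exact p = 0.00781), and 1.76 for Gucy2c, higher in 7 of 8 (exact p = 0.0156). Gucy2c UMIs in T cell nuclei thus stood nearer to the enterocyte level than UMIs of the ligand, of S100g or of the marker list did, and the difference in these ratios was not tested.

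Guca2a and S100g were concentrated in few nuclei, and Gucy2c was spread evenly. As deposited, nuclei with 10 or more UMIs made up 4.21% of all nuclei for S100g (370 nuclei) and held 57.9% of its UMIs. For Guca2a, 156 such nuclei (1.78%) held 40.2%, and for Gucy2c 35 nuclei (0.399%) held 5.35%. The fullest nucleus held 133 UMIs of S100g, 98 of Guca2a and 39 of Gucy2c. At equal depth the variance over the mean, which is near 1 when molecules fall at random, had a median over tags of 1.86 for S100g, 1.33 for Guca2a and 1.04 for Gucy2c, beside 1.04 over 3432 genes. S100g ranked 25 and Guca2a 74 of these 3432 genes. S100g exceeded Gucy2c in 9 of 9 tags (exact sign-flip permutation p = 0.00391, adjusted p = 0.00781 over 2 tests) and Guca2a did in 8 of 9 (exact p = 0.0117, adjusted p = 0.0117). The level of Gucy2c in enterocytes was only a median of 1.76 times that in T cell nuclei. The part of background RNA in its even spread was not tested.

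The ligand and S100g were higher in nuclei with more surface markers, and the receptor was not. Within each tag the thinned nuclei were ranked by the UMIs of 18 surface enterocyte markers minus those of 18 crypt and cycling markers and split in 3 equal parts. Surface markers averaged 3.22, 8.61 and 18.1 UMIs per nucleus in the crypt-end, middle and surface-end part, and crypt markers 0.398, 0.146 and 0.115. Because crypt markers were that sparse, the ranking rested mostly on the surface list, of which 5 genes (Krt20, Aqp8, Plac8, Clca4 and Ceacam1) also stand in a table the study drew from these samples. No member was in either list.

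Guca2a rose from a mean over tags of 1.56 UMIs per 10000 at the crypt end through 2.84 to 4.48 at the surface end. On log2(UMIs per 10000 + 1) the surface-end part exceeded the crypt-end part by 1.11 ± 0.781 (SD, n = 9 tags), in 8 of 9 tags (exact two-sided sign-flip permutation p = 0.0117, adjusted p = 0.0176 over 3 members). GR13 was the exception at -0.16, and in GR44 the difference was 0.07. S100g rose from 2.26 through 4.97 to 8.87, by 1.51 ± 1.04, again in 8 of 9 tags (exact p = 0.0117, adjusted p = 0.0176), with GR44 the exception at -0.26. In GR43, the tag with the most S100g and so not a typical one, the share of nuclei with S100g went from 13.1% at the crypt end to 50% at the surface end.

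Gucy2c was level along the same axis, at 5.84, 6.12 and 5.70 UMIs per 10000, a difference of -0.03 ± 0.269 (SD, n = 9 tags) with 4 of 9 tags above 0 (exact p = 0.730). The part of background RNA in this level profile was not tested. The test of the difference between genes gave 1.14 for Guca2a over Gucy2c (8 of 9 tags, exact p = 0.0117, adjusted p = 0.0176 over 3 pairs) and -1.54 for Gucy2c against S100g (higher for S100g in 8 of 9 tags, same p). Guca2a and S100g differed by -0.40 (exact p = 0.0508). When nuclei were ranked by the crypt list alone, the rise of Guca2a was 0.16 (exact p = 0.105) and that of S100g 0.14 (exact p = 0.258). Without the 5 genes of the study's table it was 1.12 for Guca2a (9 of 9 tags, exact p = 0.00391) and 1.49 for S100g.

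**Figure D3:**
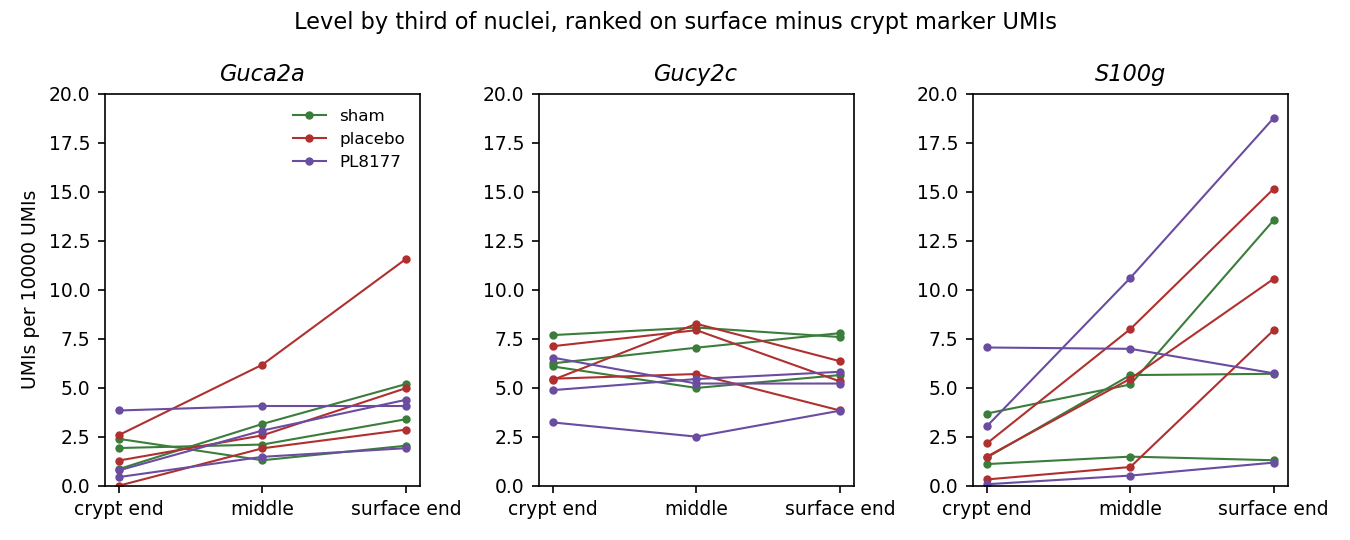
Level of each gene (vertical axes, UMIs per 10000 UMIs, same scale) in the crypt-end, middle and surface-end part of thinned enterocyte nuclei, 1 line per library tag, coloured by treatment. Guca2a and S100g climb in 8 of 9 tags each, from means of 1.56 to 4.48 and 2.26 to 8.87, while the lines of Gucy2c stay level.

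The surface rise was also compared between treatments, in 9 tests. For S100g it averaged 1.07 in sham, 2.44 in placebo and 1.02 in PL8177 on the log2 scale. The sham tags (1.46, 0.13 and 1.64) all lay below the placebo tags (2.22, 2.76 and 2.35), which gives an exact two-sided permutation p of 0.1, the smallest that 3 against 3 tags allow, and an adjusted p of 0.45. The PL8177 tags (1.02, 2.29 and -0.26) overlapped both. For Guca2a the means were 0.72 in sham, 1.71 in placebo and 0.89 in PL8177, and for Gucy2c 0.06, -0.19 and 0.04, with exact p of 0.2 to 1. How many of all genes separate sham from placebo tags in surface rise, as S100g did, was not computed. In level, 19.6% of all genes did not overlap between sham and placebo tags.

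Ligand and receptor were not found together in 1 nucleus more often than their shares give. In thinned nuclei 198 held both Guca2a and Gucy2c where 212 were expected from the shares in each tag, a ratio of 0.934. The log2 odds ratio had a median over tags of -0.17 and ran from -1.13 (GR44) to 1.11 (GR13), with 3 of 9 tags above 0. Those 3 were the sham tags, at 0.40 in GR12, 1.11 in GR13 and 0.61 in GR15, and the 6 tags with DSS lay between -1.13 and -0.10. The counts behind it were small, with 11 nuclei with both in GR13 and 2 in GR23, and this split, noticed in the data and not tested, was absent at 1000 UMIs, where GR12 stood at -0.04, GR23 at 0.62 and GR44 at 0.62.

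Over all thinned nuclei Guca2a and S100g met more often, in 265 nuclei against 173 expected (ratio 1.53), but not in every tag. By tag, this ratio was 1.57 in GR12, 1.86 in GR22, 1.86 in GR24 and 1.36 in GR43. It was 1.05 in GR15 and 1.07 in GR44, and below 1 in GR13 (0), GR23 (0.54) and GR41 (0.725). The log2 odds ratio, with 0.5 added to each cell, was above 0 in 7 of 9 tags, with a median of 0.18. Its highest values were in GR22 (1.67) and GR24 (1.56), both placebo. GR41 was among the 7 at 0.04, although 1 nucleus held both and 1.38 were expected. The lowest log2 odds ratio was in GR13, where 0 nuclei held both and 1.18 were expected. Gucy2c and S100g were together in 329 nuclei against 313 expected (ratio 1.05, median 0.22). As deposited, the medians of the 3 pairs were 0.95, 2.23 and 1.14, above those at equal depth. Over all nuclei the ratio for Guca2a and S100g was nonetheless 1.54 as deposited, against 1.53 at 500 UMIs, whereas the other ratios were 1.23 for Guca2a and Gucy2c and 1.22 for Gucy2c and S100g. At 1000 UMIs, the medians were -0.03, 0.88 and 0.11, and Guca2a and S100g were above 0 in 7 of 9 tags, but not in the same ones. GR13 (1.80, with 1 nucleus that held both) and GR23 (2.10) moved above 0. GR41 (-0.75) and GR44 (-0.19) moved below it.

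**Figure D4:**
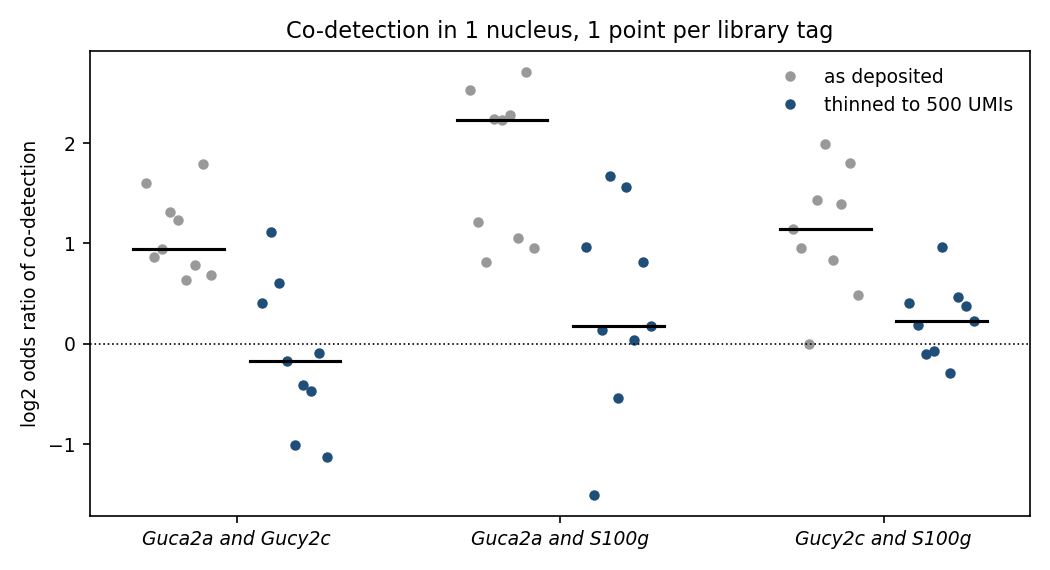
Log2 odds ratio of finding both genes of a pair in 1 enterocyte nucleus (vertical axis), 1 point per library tag and a black line at the median, as deposited (grey) and after thinning to 500 UMIs (blue). Thinning brings the medians from 0.95, 2.23 and 1.14 to -0.17, 0.18 and 0.22, around the dotted line at 0 where the genes are found independently.

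The calcium genes were divided in nuclei with S100g, with a median log2 ratio of 0.05 over 6 genes. At equal depth, nuclei with at least 1 S100g UMI were set beside nuclei without it in each tag, as a description with no test, since nuclei of a tag share their source. GR13 and GR41, with 16 and 23 nuclei with S100g, are among the 9 tags, although their S100g shares lay below the T cell background. Trpv6, the apical calcium channel, was higher in 9 of 9 tags, by a median log2 ratio of 1.05 (0.65 to 2.11). Vdr was higher in 9 of 9 tags by 0.48 (0.22 to 0.75), and Atp2b1, a calcium pump of the plasma membrane, in 8 of 9 by 0.52. Slc8a1, a sodium-calcium exchanger, was lower in 9 of 9 tags by a median of -0.92. Of 3431 genes compared, 3.67% were higher and 7.23% lower in every tag, with a median of -0.19. Of the 6 calcium genes abundant enough, 3 had a median above 0, with Rxra at -0.40 and Pdia3 at -0.37. Trpv6 also stands in the study's own table.

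The cGMP genes were divided in the same nuclei, with 6 of 11 above 0. Prkg2, the kinase that cGMP drives, was higher with S100g in 9 of 9 tags (median log2 ratio 0.63), as was the surface chloride-bicarbonate exchanger Slc26a3 (0.59), which is also in the surface list. Cftr was lower in 8 of 9 tags (-1.55) and the phosphodiesterase Pde3a in 9 of 9 (-0.89). Cftr had 630 thinned UMIs in all, so its ratio is limited by low counts where few nuclei held S100g, such as 16 in GR13. Pde5a and Pde9a, which break down cGMP, were near 0 at 0.07 and 0.00411.

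Nuclei with Guca2a leaned the same way for Prkg2 and Cftr but not for Slc9a3, and nuclei with Gucy2c hardly differed from those without. With Guca2a the surface list had a median of 0.35, with 13 of 17 genes above 0 and Myo1a the lowest (-0.10). Its highest gene, the water channel Aqp8, was higher in 8 of 9 tags (1.06), and the carbonic anhydrase Car4 in 9 of 9 (0.84). Prkg2 was higher in 7 of 9 (0.47), and Cftr was lower in 8 of 9 (-1.09). Slc9a3 was higher in 7 of 9 tags with Guca2a (0.29) and lower in 7 of 9 with S100g (-0.23). With Gucy2c, Cftr was higher in 7 of 9 tags (0.31) and Prkg2 lower in 6 of 9 (-0.24), while the goblet gene Fcgbp (-0.47) and the transcription factor Klf4 (-0.31) were lower in 9 of 9. Genes higher in every tag made up 1.34% with Guca2a and 0.233% with Gucy2c, and genes lower in every tag 3.35% and 0.262%. The part of background RNA in the nuclei counted as holding Gucy2c was not tested.

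By size, the 5 leading genes with S100g were the tight junction gene Cldn4 (1.72), Sectm1b (1.67), Tm4sf20 (1.58), Insig1, a brake on sterol synthesis (1.5), and the hydrogen peroxide-making oxidase Duox2 (1.47). With Guca2a they were S100a6, another S100 protein (1.03), Pdp1 (1.02), Grina (0.97), the respiratory chain gene Cox4i1 (0.95) and Plet1 (0.89). With Gucy2c the phosphatase gene Ppm1a (0.55) led, before Bok (0.36), Uaca (0.21), Dcaf6 (0.19) and Ttc3 (0.14). Ratios of genes that fell are limited by low counts in the smaller group. It had 16 nuclei with S100g in GR13, 23 in GR41, and 14 with Guca2a in GR23. RNA of ribosomal protein genes was higher in nuclei with S100g in 3 of 9 tags, with Guca2a in 1 and with Gucy2c in 2, with medians of -0.08, -0.11 and -0.12.

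**Figure D5:**
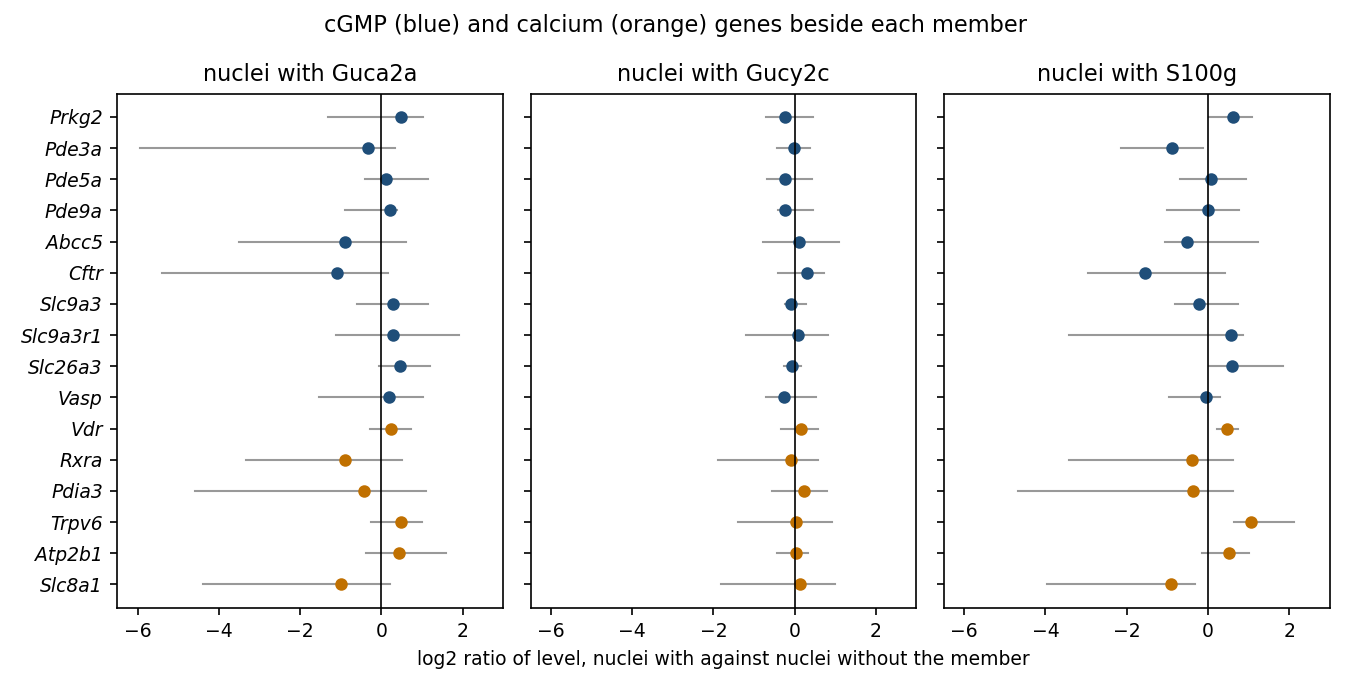
Log2 ratio of the level of cGMP genes (blue) and calcium genes (orange) in thinned nuclei with a member against nuclei without it (horizontal axes), as the median over 9 library tags with a line from the lowest to the highest tag. Trpv6, Vdr and Prkg2 lie above 0 in each tag with S100g, Cftr lies left of 0 with Guca2a and S100g (medians -1.09 and -1.55), and the ratios with Gucy2c stay near 0.

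The partners of the pathway gave few differences between treatments. Of 28 cGMP genes listed, 26 were found and 16 tested, and edgeR called 0 in each comparison, beside 0% of all genes. Against placebo, the list's median log2 fold change came to 0.08 in sham and 0.03 in PL8177, beside -0.02 and -0.01 over all genes. At an unadjusted p below 0.05 in edgeR, 1 of the 16 was higher and 1 lower in sham, and 2 higher and 1 lower in PL8177, against placebo. Over all genes the shares in either direction were 12.4% and 9.24%.

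Cftr, the channel that cGMP opens, stood at 2.14, 3.32 and 2.02 UMIs per 10000 in the placebo tags. It stood at 0.581, 0.379 and 0.404 in the sham tags and at 0.554, 1.01 and 0.546 in the PL8177 tags, both below every placebo tag. Its log2 fold change was -2.24 in sham (SE 0.309, edgeR adjusted p = 0.0580, DESeq2 adjusted p = 3.56e-07) and -1.62 in PL8177 (SE 0.292, edgeR adjusted p = 0.143, DESeq2 adjusted p = 0.000651), so the call depended on the tool. The scaffold gene Slc9a3r1, whose protein holds Cftr and Slc9a3 at the apical membrane, had the highest values of the list, 1.52 in sham and 1.29 in PL8177 (edgeR adjusted p = 0.219 and 0.409, DESeq2 adjusted p = 0.0356 and 0.134). It stood at 0.648, 0.846 and 0.684 in the placebo tags, below the 0.990, 2.65 and 1.88 of the sham tags and the 0.968, 1.21 and 2.48 of the PL8177 tags. Over all genes, 19.6% did not overlap between sham and placebo tags, and 18.8% between PL8177 and placebo tags. DESeq2 thus called 2 of the list in sham, Cftr and Slc9a3r1, and 1 in PL8177, Cftr, beside 1.93% and 1.32% of the genes it adjusted.

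Of 15 calcium genes listed, 12 were found and 11 tested, and edgeR called 0. At an unadjusted p below 0.05 in edgeR, 2 of the 11 were higher and 1 lower in sham, and likewise in PL8177, against placebo. Over all genes the shares in either direction were 12.4% and 9.24%. DESeq2 called 0 in sham and 1 in PL8177, Slc8a1, beside 1.93% and 1.32% of the genes it adjusted. The list had medians of 0.10 in sham and 0.28 in PL8177 against placebo. Trpv6 had a log2 fold change of 0.89 in sham and 1.21 in PL8177 (edgeR adjusted p = 0.452 and 0.478), Vdr 0.47 and 0.37 (adjusted p = 0.384 and 0.624), and Slc8a1 -0.71 and -1.16 (edgeR adjusted p = 0.373 and 0.273, DESeq2 adjusted p = 0.0297 in PL8177). Among 18 intestinal transcription factors, all found, 14 were tested and 0 called. Hnf4a, a regulator of enterocyte genes, was the highest of them in sham at 0.97 and stood at 0.27 in PL8177. Of 13 other S100 genes, 11 were found, 5 tested and 0 called, and S100a6, the one with the most UMIs, was at -0.55 in sham and 0.41 in PL8177.

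Across the 9 tags each member had its own closest genes, by Pearson's r on log2(UMIs per 10000 + 0.1), given as a measure of likeness with no test among 9424 genes. Guca2a was most like Cryl1 (r = 0.95), Ift20, Slc4a2, Gchfr and Mcee (0.925). Gucy2c was most like Churc1 (r = 0.981), the carnitine transporter Slc22a5, Mzt2b, Pdzk1ip1 and Gabarapl1 (0.927). S100g was most like Amn (r = 0.940), Serinc3, Sdc3, Chtf8 and the adenosine receptor Adora2b (0.926). The lists share no gene.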

How the data were processed

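Nuclei of 9 colon samples had been sequenced. Per the labels and the study's methods, the authors made UMI counts with Cell Ranger 6.0.1 on Rnor 6.0, introns included, and applied CellBender. They required 3 cells per gene, 200 genes per nucleus and less than 5% of reads from mitochondria, and named cell types in Seurat 4.0.3. They deposited raw, unnormalized counts of enterocytes and T cells per treatment. The last line of the placebo T cell counts is incomplete and was left out, so T cells were compared over 15108 genes. The members and gene lists were chosen with earlier results of these data known.

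The UMI counts of each library tag were summed over its nuclei, since nuclei are not replicates, and tested with edgeR (version 4.0.16, R 4.3.3, filterByExpr, TMM, glmQLFTest, Benjamini-Hochberg, 9 tags in 1 fit). The p-values measure the spread between tags, whose separate origin the labels do not state. DESeq2 1.42.0 was an alternative. Python 3.11.15, numpy 2.4.6, scipy 1.17.1, pandas 2.3.3, scanpy 1.11.5 and matplotlib 3.10.9 gave the rest. Nuclei were thinned to 500 UMIs (300 or 1000 as alternatives). Odds ratios had 0.5 added to each cell. Intervals of shares are exact Clopper-Pearson 95% intervals, and they and the limit of 3 counts that a 0 allows cover counting error only. Scrublet called 49 of 8782 enterocyte nuclei (0.558%), which were kept except in an alternative. In simulated counts of 9273 genes, 200 of which moved by 1 on the log2 scale, 2.5% of these were called for sham against placebo, 0% for PL8177 against placebo and 0.5% for PL8177 against sham. Of those moved by 3, 98%, 98.5% and 99% were called.

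Genes named are the members, list genes (up to 10 per list by UMIs), the 5 most like each member over tags, and the 5 with the highest median ratio in nuclei with a member among genes with at least 200 thinned UMIs that were higher in every tag with 10 or more such nuclei. Aqp8, Car4, Fcgbp and Klf4, and the extremes of each list, were named after their values were seen.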

Additional observations from a re-analysis of the deposited data

How the results depend on the processing

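No tested member was called in any alternative: over 17 alternatives per comparison, adjusted p (edgeR or DESeq2) ran from 0.346 to 1. The number of genes called, 0 in edgeR, moved to 115 (sham against placebo), 70 (PL8177 against placebo) and 4 (PL8177 against sham) with DESeq2, and to 51, 8 and 10 with no filter on low counts. For sham against placebo it was 1 with thinned nuclei and 15 without deep nuclei (over 3 times the median of their tag, an alternative chosen after seeing the data). Leaving out each tag gave 0 to 8 for sham against placebo, 0 for PL8177 against placebo and 0 to 2 for PL8177 against sham. The cause was not tested.

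Signs of the small differences were not stable. S100g in PL8177 against placebo turned to 0.11 in thinned nuclei and to 0.33 without deep nuclei (log2). With each tag left out, Guca2a ran from -0.99 to 0.43 for sham and -0.90 to 0.51 for PL8177 against placebo, and -0.11 to 0.52 for PL8177 against sham. Gucy2c ran from -0.47 to 0.069 for PL8177 against placebo, and S100g from -0.95 to 0.49 against placebo and -0.28 to 1.16 against sham.

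Detection differences, in percentage points, turned to -0.0173 (Guca2a, PL8177 minus sham), -0.786 (Gucy2c, sham minus placebo) and -1.06 (S100g, PL8177 minus placebo) at 1000 UMIs, and to -4.86 for Gucy2c, sham minus placebo, as deposited. With each tag left out, Guca2a ran from -7.34 to 0.486 (sham minus placebo), -6.48 to 1.35 (PL8177 minus placebo) and -1.73 to 3.41 (PL8177 minus sham). S100g ran from -7.79 to 1.68, -5.92 to 8.55 and -2.77 to 11.7 in the same order.

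Co-detection as deposited moved to medians of 0.95 (Guca2a and Gucy2c), 2.23 (Guca2a and S100g) and 1.14 (Gucy2c and S100g), where depth was not equalised. By the crypt list alone the surface rise was 0.16 for Guca2a and 0.14 for S100g, past no threshold, and 0.040 for Gucy2c, which also turned to 0.13 at 1000 UMIs. With each tag left out it ran from 1.01 to 1.27 (Guca2a), -0.070 to 0.017 (Gucy2c) and 1.36 to 1.73 (S100g), with exact p of 0.00781 to 0.0234 for Guca2a and S100g.

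No paired analysis was possible because the tags carry no numbers that pair rats across treatments. Depth limits GR13, GR15 and GR23, which hold the fewest UMIs, and a 2-fold change was rarely called in simulated counts.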
